A study of Mus musculus with 16 samples.

Results

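The homeobox, paired box, LIM homeobox, sine oculis, T-box, GATA and NKX genes encode transcription factors that pattern the embryo, and most of them are kept silent by Polycomb in differentiated cells. Here 96 of the 49584 genes listed in the count table were taken by symbol alone: the genes of the Hoxa, Hoxb, Hoxc and Hoxd clusters, Pax1 to Pax9 without Pax5, the Lhx, Tbx, Gata and Nkx genes, the sine oculis genes, and Isl1. They comprise 39 Hox, 15 Nkx, 13 Tbx, 8 Lhx, 8 Pax, 6 sine oculis and 6 Gata genes and Isl1. All but the antisense transcript Nkx2-2os (95 of 96) are annotated as protein coding. Their levels were measured by RNA sequencing of germinal centre B cells sorted from mouse spleen.

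The mutant mice had the genotype Ezh2(Y641F)fl/wt;Cγ1-cre+/- and the controls Cγ1-cre+/-, so both carried the Cre recombinase, which is expressed from the γ1 immunoglobulin constant region locus of B cells once they are activated. All mice were C57BL/6J, 3 months old, labelled as of 1 litter, and their spleens were taken 8 days after immunization with sheep red blood cells. Each of the 4 groups held 4 libraries: mutant centroblasts, control centroblasts, mutant centrocytes and control centrocytes. Centroblasts, the dividing dark zone cells, were gated as B220+ FAS+ CD38- CXCR4+ CD86-, and centrocytes, the light zone cells, as B220+ FAS+ CD38- CXCR4- CD86+. The cells sorted are those of the germinal centre as a whole, whether or not the conditional allele had recombined in each. Germinal centre B cell markers summed to 10600 to 11900 CPM (reads scaled to library sizes adjusted by TMM factors) in mutant centroblasts, 9790 to 11100 in control centroblasts, 10300 to 11200 in mutant centrocytes and 8690 to 10100 in control centrocytes.

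Polycomb repressive complex 2 (PRC2) places methyl groups on lysine 27 of histone H3 through its enzyme EZH2, and PRC1 binds that mark and compacts the chromatin. Hox clusters are the classic targets of both complexes. The Y641F change, found in germinal centre lymphomas, shifts the enzyme towards adding the last methyl group, and together with the wild-type enzyme it raises the trimethyl mark. The comparisons below ask whether the developmental factors were detected and whether their RNA differed between mutant and control cells and between the zones.

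Promoter sequences are shown for members on which the results turn, with every CG dinucleotide in capitals, since Polycomb targets in mammals lie mostly at CG-rich promoters. Each is 1 window of 300 bases, 250 before and 50 after the transcription start, from RefSeq on GRCm38.p6, read 5′ to 3′ on the strand of the gene. Isl1 (chr13:116309639-116309938, minus strand), the gene of highest level among those higher in mutants of both zones, holds 37 CG dinucleotides.
Isl1: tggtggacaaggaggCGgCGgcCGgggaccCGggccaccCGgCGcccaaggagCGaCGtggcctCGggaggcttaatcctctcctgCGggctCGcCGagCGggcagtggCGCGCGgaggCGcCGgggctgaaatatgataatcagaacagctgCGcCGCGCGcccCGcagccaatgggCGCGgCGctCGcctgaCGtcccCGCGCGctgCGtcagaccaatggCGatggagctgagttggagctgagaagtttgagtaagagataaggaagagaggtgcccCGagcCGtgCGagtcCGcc
Pax6 (chr2:105668646-105668945, plus strand, 1 of 2 windows listed for the gene) holds 18, Hoxc4 (chr15:103034145-103034444, plus strand) holds 9, and Tbx21 (chr11:97115282-97115581, minus strand), the most abundant member, holds 21.
Pax6: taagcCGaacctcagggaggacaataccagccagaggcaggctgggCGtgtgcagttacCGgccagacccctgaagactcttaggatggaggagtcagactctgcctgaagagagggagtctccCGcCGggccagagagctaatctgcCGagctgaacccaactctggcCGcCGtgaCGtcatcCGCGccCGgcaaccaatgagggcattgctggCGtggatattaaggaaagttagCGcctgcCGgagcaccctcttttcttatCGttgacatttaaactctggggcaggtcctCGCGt
Hoxc4: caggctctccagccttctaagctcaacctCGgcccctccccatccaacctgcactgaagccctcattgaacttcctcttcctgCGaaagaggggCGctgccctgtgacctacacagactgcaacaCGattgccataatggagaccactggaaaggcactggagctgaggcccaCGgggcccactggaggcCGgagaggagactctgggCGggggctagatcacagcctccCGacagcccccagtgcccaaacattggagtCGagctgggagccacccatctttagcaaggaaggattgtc
Tbx21: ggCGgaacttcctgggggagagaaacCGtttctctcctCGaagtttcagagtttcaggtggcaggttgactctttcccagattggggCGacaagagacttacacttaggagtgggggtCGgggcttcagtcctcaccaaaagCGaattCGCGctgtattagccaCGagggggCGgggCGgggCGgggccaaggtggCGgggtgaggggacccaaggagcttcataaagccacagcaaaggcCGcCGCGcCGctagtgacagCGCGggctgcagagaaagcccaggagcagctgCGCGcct
Over 32851 windows of the same length the median was 7 CG dinucleotides. At least as many as in Isl1 stood in 5.58% of windows, as many as in Pax6 in 29.7%, as many as in Hoxc4 in 45.8% and as many as in Tbx21 in 24.8%. The motif CG reads the same on both strands. A count of letters in a window is a description and says nothing of binding there. Hoxb13 and Hoxc9 are named only. Windows were listed for 66 of the 96 members (68.8%), under the 80% needed, so a check over the members as a whole is void.

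Most developmental factors were at or near 0. Of the 96 members 79 had at least 1 count in 1 of the 16 libraries and 17 had none: Gata4, Gata6, Hoxb8, Hoxc12, Hoxc13, Hoxd1, Hoxd9, Nkx1-1, Nkx2-4, Nkx2-6, Nkx2-9, Nkx3-2, Nkx6-2, Pax4, Six2, Tbx10 and Tbx22. A count of 0 over all libraries allows up to 0.00485 CPM (3 counts over all reads). Only 19 reached 10 counts in some library, and 12 reached 10 counts in 4 libraries. For scale, Pax5, the B cell factor left out by the rule, averaged 1090 CPM in mutant centroblasts, 1100 in control centroblasts, and 1050 in mutant and in control centrocytes.

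The 12 members that passed the low count filter were Tbx21, Tbx6, Six5, Isl1, Hoxb4, Hoxa7, Pax6, Hoxb13, Hoxa5, Hoxc9, Hoxb6 and Hoxa3. The genes Tbx21, Tbx6 and Six5 took 81% of all reads over the members. Per kilobase of exon, averaged over all libraries, Tbx21 stood at 5.84 CPM, Tbx6 at 1.82 and Six5 at 0.581, against 0.197 for Hoxb4, 0.175 for Hoxa7, 0.16 for Isl1, 0.145 for Hoxb13, 0.126 for Hoxa5, 0.104 for Hoxb6, 0.0956 for Hoxc9, 0.0397 for Pax6 and 0.0312 for Hoxa3. By family, 7 of 39 Hox, 2 of 13 Tbx, 1 of 8 Pax, 1 of 6 sine oculis genes, none of the Gata, Lhx and Nkx genes, and Isl1 itself passed. A filter on counts keeps a gene that is high in 1 group, so these 12 are not a fair sample of the members for a difference between groups.

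Detection differed in 1 library. Control centrocyte library 2 had a count for 64 members, 40 of them with 1 to 3 counts, while the other 15 libraries had a count for 16 to 34. The library also had a count for 26725 listed genes, where the others had 19838 to 23005. Members with a count in at least 1 library numbered 43 in mutant centroblasts, 43 in control centroblasts, 42 in mutant centrocytes and 71 in control centrocytes. Without that library 65 members had a count in the whole series. Detection is therefore given by library and not compared between groups.

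**Figure D1:**
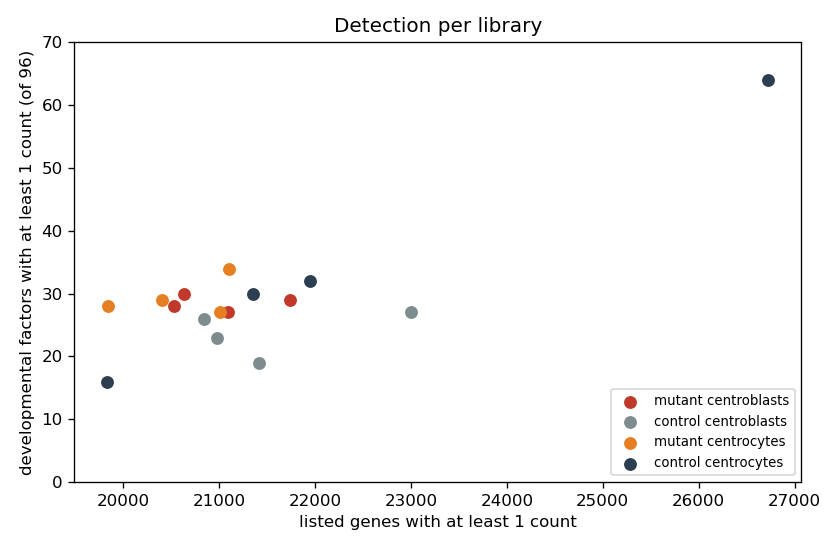
Number of the 96 developmental factors with at least 1 count (vertical axis) against the number of all listed genes with at least 1 count (horizontal axis), 1 point per library, coloured by group. Control centrocyte library 2 stands apart on both axes, with 64 members and 26725 genes; the others lie at 16 to 34 members.

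The libraries held 35230563 to 44466911 counted reads each, and 3 counts in a library correspond to 0.0687 to 0.0861 CPM. Libraries 1 and 2 of every group held abundant Y-linked transcripts, and libraries 3 and 4 held few (at most 29 reads of a gene). Xist showed the reverse, with 12 to 200 reads in libraries 1 and 2 and 11071 to 69274 in libraries 3 and 4. Values within each pair of numbers are therefore given where they bear on a result. Macrophage markers summed to 40.7 to 239 CPM in mutant centrocytes and 56.2 to 94.1 CPM in control centrocytes. In sorted bulk cells, fewer cells with a transcript and less transcript per cell cannot be told apart.

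In centroblasts, 4 developmental factors were higher in mutants: Isl1, Hoxb13, Hoxc9 and Pax6. They are 4 of the 12 tested, and none was lower, where 10.5% of all 15240 tested genes were called by the same rule (4.06% higher and 6.4% lower). The rule is an adjusted p of at most 0.05 in the edgeR quasi-likelihood test with Benjamini-Hochberg adjustment over all tested genes. In centrocytes 3 of the 12 were higher, Isl1, Hoxb13 and Hoxc9, and none lower, where 16.5% of all tested genes were called (7.37% higher and 9.15% lower). The libraries of mutants and controls did not overlap for these same genes alone among the 12, higher in mutants for 4 in centroblasts (6.36% of all tested genes) and 3 in centrocytes (11.1%), and lower for none (8.01% and 12.4%). Isl1, Hoxb13 and Hoxc9 passed the low count filter only through their mutant libraries. The shares of the 12 therefore lean towards higher in mutants and are not a test against the shares of all genes. The median log2 difference of all tested genes was 0.008 in centroblasts and 0.001 in centrocytes.

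Isl1, a LIM homeodomain factor of motor neurons, heart progenitors and pancreatic islets, lies at chr13:116298281-116309689 on the minus strand (mm10, GENCODE M21). Its level was 1.97, 1.31, 1.01 and 0.964 CPM in mutant centroblast libraries 1 to 4, against 0.361, 0.181, 0.127 and 0.387 CPM in control centroblasts. Every mutant library lay above every control library. The difference was 2.31 ± 0.48 on the log2 scale (SE, n = 4 per group, edgeR adjusted p = 0.00393), or 4.95-fold.

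In centrocytes Isl1 stood at 0.914, 1.15, 0.574 and 0.79 CPM in mutants, against 0.0802, 0.167, 0 and 0.121 CPM in controls, which are 3, 7, 0 and 5 reads. The groups did not overlap here either, and control library 3 held no read. The log2 difference was 3.18 ± 0.54 (SE, edgeR adjusted p = 0.000791), or 9.05-fold. Between libraries 1 and 2 alone it was 2.58 ± 0.54 in centroblasts and 3 ± 0.59 in centrocytes, and between libraries 3 and 4 alone 1.94 ± 0.66 (adjusted p = 0.148, no longer called) and 3.43 ± 0.83.

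Hoxb13, the posterior end of the Hoxb cluster and a factor of prostate and hindgut, lies at chr11:96194316-96197447 on the plus strand. It had 0.551, 0.685, 0.389 and 0.661 CPM in mutant centroblasts, against 0.139, 0.0516, 0.229 and 0.232 CPM in control centroblasts. The mutant libraries were all above the control libraries, with 17 to 25 reads in mutants and 2 to 9 in controls. The log2 difference was 1.78 ± 0.51 (SE, edgeR adjusted p = 0.0318). That call ended in 7 of 27 other settings, among them libraries 3 and 4 alone (1.18 ± 0.57, adjusted p = 0.332) and leaving out mutant library 1, 2 or 4 (adjusted p = 0.065, 0.086 and 0.0831) or control library 1 or 2 (0.0749 and 0.112).

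In centrocytes Hoxb13 had 0.522, 0.295, 0.718 and 0.421 CPM in mutants and 0, 0.0477, 0.141 and 0.0486 CPM in controls. The groups again did not overlap, and the log2 difference was 2.94 ± 0.58 (SE, edgeR adjusted p = 0.00248), or 7.68-fold. It was 3.86 ± 1.01 between libraries 1 and 2 alone and 2.52 ± 0.64 between libraries 3 and 4 alone. The call held in all 27 other settings, with an adjusted p of at most 0.0402.

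Hoxc9, a factor of the thoracic segments, lies at chr15:102976439-102985099 on the plus strand. It had 11, 18, 9 and 7 reads in mutant centroblasts, against 2, 0, 1 and 0 reads in control centroblasts. In centrocytes it had 46, 11, 19 and 13 reads in mutants, against 0, 1, 0 and 2 reads in controls. Control cells of either zone thus held 3 reads in 4 libraries, and each mutant library held at least 7. Mutant centrocyte library 1, with 1.2 CPM, was the highest, and the other mutant centrocyte libraries lay between 0.295 and 0.545 CPM.

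Scaled by library size, the ratio of summed Hoxc9 reads was 14.8 in centroblasts (exact 95% interval 4.76 to 74.6) and 32.6 in centrocytes (10.8 to 161). These intervals cover counting error only. The fitted log2 differences were 3.7 ± 0.83 (SE, edgeR adjusted p = 0.00694) and 4.8 ± 0.78 (adjusted p = 0.000588). In centroblasts the call held in 23 of the 24 other settings that tested the gene, and the adjusted p was 0.12 between libraries 3 and 4 alone, at a log2 difference of 3.68 ± 1.16. In centrocytes the call held in all 27 other settings.

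Pax6, the paired box factor of eye, forebrain and pancreas, lies at chr2:105668900-105697364 on the plus strand. Its level was 0.997, 1.37, 1.01 and 0.854 CPM in mutant centroblasts, against 0.527, 0.387, 0.305 and 0.335 CPM in control centroblasts. The groups did not overlap, and the log2 difference was 1.44 ± 0.44 (SE, edgeR adjusted p = 0.0425), or 2.71-fold. This call ended in 13 of 27 other settings, with adjusted p values of 0.0509 to 0.144 there and a log2 difference of 1.36 ± 0.59 between libraries 1 and 2 and of 1.54 ± 0.52 between libraries 3 and 4.

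In centrocytes Pax6 had 0.235, 0.537, 0.23 and 0.132 CPM in mutants and 0.107, 0.262, 0.0235 and 0.121 CPM in controls. These groups overlapped, and the log2 difference of 1.12 ± 0.52 did not pass (edgeR adjusted p = 0.15). Whether the genotype difference itself differed between the zones was tested by the interaction. For Pax6 it was -0.32 ± 0.71, for Isl1 0.87 ± 0.71, for Hoxb13 1.16 ± 0.78 and for Hoxc9 1.1 ± 1.47 on the log2 scale (adjusted p = 0.999 for each). By edgeR no member and no gene of the table passed the interaction (0% of tested genes). At an unadjusted p under 0.05 there were 0 members and 429 genes, and DESeq2 called 0 members and 1 gene.

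**Figure D2:**
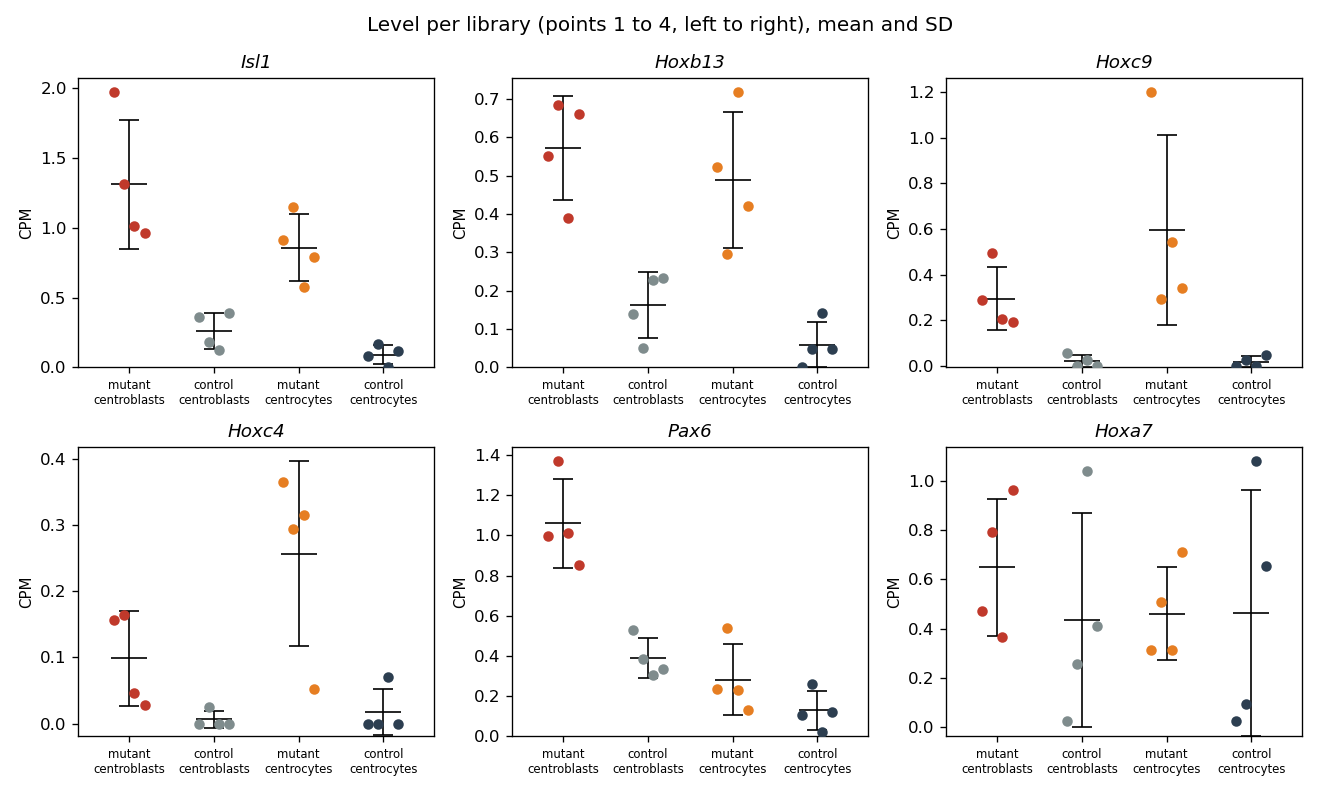
Level in CPM (vertical axis) of 6 developmental factors in the 4 groups (horizontal axis). Points are libraries 1 to 4 from left to right, and the horizontal line and bar are the mean and SD (n = 4), whose lower end may pass below 0. Isl1, Hoxb13 and Hoxc9 lie higher in all mutant than in all control libraries of each zone, Pax6 does so in centroblasts, and the libraries of Hoxa7 overlap.

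Markers of other cells were read beside these differences. The list of stroma and endothelium summed to 164 to 188 CPM in mutant centroblasts and 79 to 87.7 in control centroblasts, and to 262 to 308 CPM in mutant centrocytes and 107 to 127 in control centrocytes. Nearly all of it was Pecam1, an adhesion receptor that B cells also express. Without Pecam1 the other 11 markers summed to 1.12 to 1.73 CPM in mutant centroblasts and 1.6 to 2.06 in control centroblasts, and to 1.98 to 2.95 CPM in mutant centrocytes and 2.41 to 3.8 in control centrocytes, with Ccl19 at 0 in every library. Macrophage markers were high in mutant centrocyte libraries 3 and 4. With these left out, the log2 differences in centrocytes were 3.45 ± 0.61 for Isl1, 2.7 ± 0.69 for Hoxb13 and 5.14 ± 0.88 for Hoxc9, all called. That fit keeps control centrocyte libraries 3 and 4, so it also changes the balance of Y-linked transcripts between genotypes. The part of other cells in these differences was not tested.

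Among the Hox clusters, Hoxc held more reads in mutants of both zones. Its 9 genes held 17, 27, 12 and 8 reads in mutant centroblasts, against 3, 1, 1 and 2 in control centroblasts, and 75, 29, 34 and 22 reads in mutant centrocytes, against 0, 4, 3 and 2 in control centrocytes. Mutant libraries were above control libraries in both zones. Hoxc9 gave most of these reads, and Hoxc4, Hoxc6 and Hoxc8 most of the others.

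Hoxc4 (chr15:103034145-103034444 is its window above, within the gene at chr15:103018934-103036852) did not reach the filter. It had 6, 6, 2 and 1 reads in mutant centroblasts and 0, 1, 0 and 0 in control centroblasts, a ratio of 14.8 (exact 95% interval 2.28 to 625). In centrocytes it had 14, 11, 11 and 2 reads in mutants and 0, 0, 3 and 0 in controls, a ratio of 13.9 (4.42 to 70.5). The lowest mutant centrocyte library thus lay under the highest control library. In an edgeR fit with no low count filter, over 32901 genes, Hoxc4 passed in centrocytes (adjusted p = 0.00663) and did not in centroblasts (adjusted p = 0.0815).

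Hoxc8 had 11, 1, 0 and 3 reads in mutant centrocytes and none in the libraries of the other 3 groups. Against the limit of 3 counts over the control centrocyte group the ratio is 5.5, and the exact 95% interval of the ratio starts at 3.94. It passed in the fit with no filter (adjusted p = 0.0483), with 11 of its 15 reads in 1 library. Hoxc6 had 2, 5, 1 and 3 reads in mutant centrocytes and 0, 1, 0 and 0 in control centrocytes (ratio 12.1, exact 95% interval 1.76 to 520), and did not pass (adjusted p = 0.21). With no filter, 79 members were fitted and 4 were called higher in centroblasts and none lower, where 4.58% of all fitted genes were called (1.78% higher and 2.81% lower). In centrocytes 5 were higher and none lower, where 7.53% of all fitted genes were called (3.03% higher and 4.49% lower).

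The other clusters did not follow the same course. The Hoxb cluster held 63, 64, 45 and 56 reads in mutant centroblasts and 27, 27, 55 and 44 in control centroblasts, and 73, 62, 57 and 43 reads in mutant centrocytes and 22, 84, 61 and 36 in control centrocytes. These groups overlapped. Within the cluster Hoxb4 had 20, 23, 14 and 19 reads in mutant centroblasts, against 15, 14, 25 and 18 in control centroblasts, and 17, 23, 12 and 11 reads in mutant centrocytes, against 16, 35, 34 and 18 in control centrocytes. It averaged 0.5 ± 0.129 CPM in mutant centroblasts, 0.469 ± 0.118 in control centroblasts, 0.424 ± 0.144 in mutant centrocytes and 0.625 ± 0.222 in control centrocytes (SD, n = 4). Hoxb6 averaged 0.157 ± 0.106 CPM in mutant centroblasts, 0.136 ± 0.101 in control centroblasts, 0.323 ± 0.109 in mutant centrocytes and 0.203 ± 0.131 in control centrocytes. Neither passed between genotypes. The log2 difference was 0.08 ± 0.35 in centroblasts and -0.56 ± 0.34 in centrocytes for Hoxb4, and 0.19 ± 0.62 and 0.64 ± 0.55 for Hoxb6.

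In the Hoxa cluster the spread among control libraries was wide. Hoxa7 had 18, 29, 16 and 35 reads in mutant centroblasts, against 1, 10, 41 and 16 in control centroblasts, and 12, 19, 11 and 27 reads in mutant centrocytes, against 1, 4, 46 and 27 in control centrocytes. Control libraries 1 were lowest and control libraries 3 highest in both zones, and the mutant libraries lay between them. The log2 difference was 0.56 ± 0.78 in centroblasts and -0.02 ± 0.78 in centrocytes (edgeR adjusted p = 0.729 and 0.993).

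Hoxa5 had 1, 6, 0 and 4 reads in mutant centroblasts, against 3, 5, 26 and 10 in control centroblasts, and 19, 11, 0 and 3 reads in mutant centrocytes, against 3, 12, 38 and 9 in control centrocytes. Control libraries 3 were again the highest, and the genotypes overlapped in both zones. Neither genotype difference passed (-1.92 ± 1.02 and -0.75 ± 0.87 on the log2 scale, adjusted p = 0.282 and 0.589). Hoxa3 averaged 0.162 ± 0.141 CPM in mutant centroblasts, 0.193 ± 0.155 in control centroblasts, 0.14 ± 0.0787 in mutant centrocytes and 0.256 ± 0.185 in control centrocytes, and also failed the test. Exons of Hoxa3 and Hoxa7 overlap the antisense gene Hoxaas3, and whether the counting used the strand is not given in the sources used here, so reads of the pair cannot be told apart.

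The Hoxd cluster was nearly empty. It held 2, 0, 0 and 0 reads in mutant centroblasts, 1, 0, 1 and 0 in control centroblasts, 1, 0, 2 and 0 in mutant centrocytes, and 7, 14, 5 and 8 in control centrocytes. Every mutant centrocyte library thus lay below every control centrocyte library, the direction opposite to Hoxc. Hoxd4 gave 21 of the 34 reads in control centrocytes, 4 to 7 in every library, against 3 in mutant centrocytes (ratio 0.157, exact 95% interval 0.03 to 0.526). In the fit with no filter the genotype difference of Hoxd4 did not pass (-2.49 ± 1.11, adjusted p = 0.197). Exons of Hoxd4 overlap those of Hoxd3 and of the antisense gene Hoxd3os1.

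**Figure D3:**
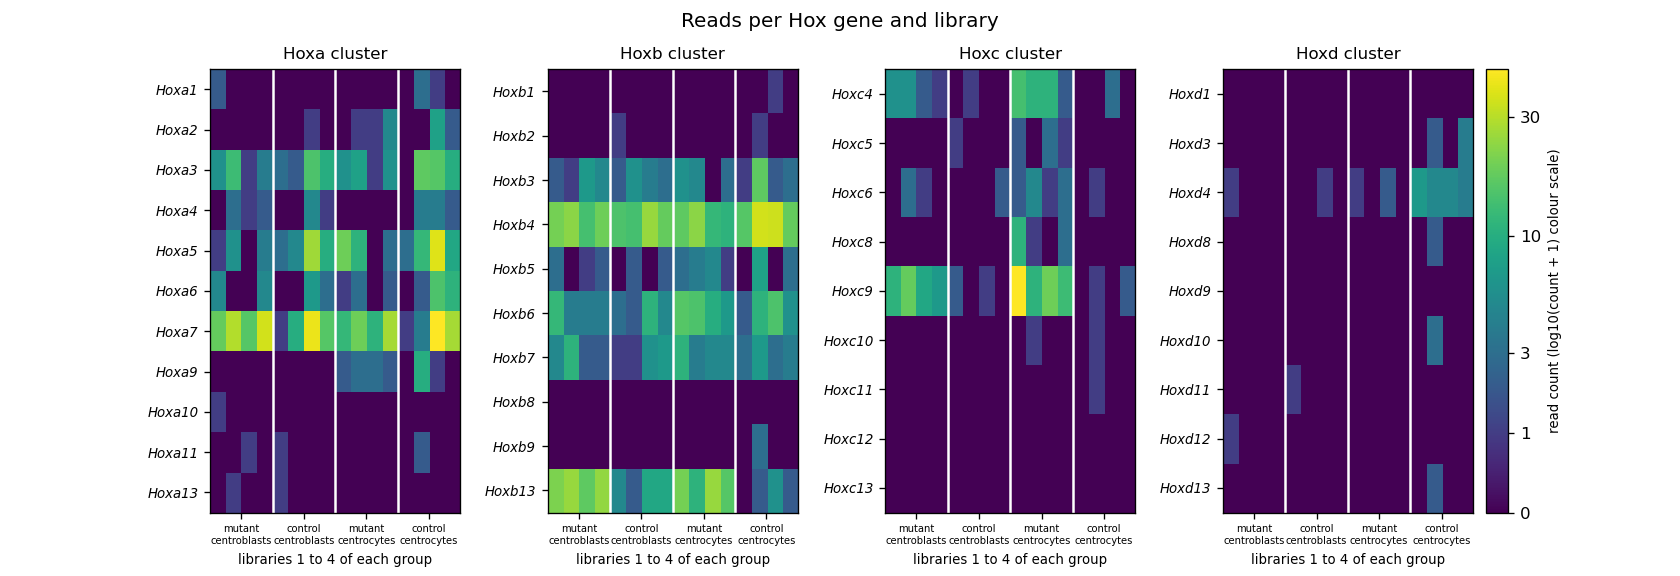
Reads per Hox gene (down) and library (across, libraries 1 to 4 of each group) in the 4 Hox clusters, on a log10(count + 1) colour scale. The Hoxc cluster holds 64 and 160 reads in mutant centroblasts and mutant centrocytes against 7 and 9 in the control groups, and Hoxa5 and Hoxa7 are brightest in control libraries 3.

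Of the other members below the filter, those with the most reads were Lhx6 (79 reads over all libraries), Hoxb7 (77), Hoxb3 (67), Hoxa6 (54), Hoxb5 (34), Pax7 (29), Hoxa4 (22) and Hoxa9 (21). Lhx6, a factor of forebrain interneurons, had 31 reads in mutant centroblasts, 20 in control centroblasts, 16 in mutant centrocytes and 12 in control centrocytes. Hoxa9 had no read in either centroblast group, 10 in mutant centrocytes and 11 in control centrocytes, of which 10 lay in library 2. Pax3, a neural crest and muscle factor named after its values were seen, had 9 reads in mutant centroblasts and 0 in control centroblasts, and 8 in mutant centrocytes and 1 in control centrocytes. It did not pass in the fit with no filter (adjusted p = 0.119 and 0.297). The 15 Nkx genes held 6 reads in mutant centroblasts, 3 in control centroblasts, 5 in mutant centrocytes and 22 in control centrocytes. The 6 Gata genes held 10 reads in mutant centroblasts, 7 in control centroblasts, 11 in mutant centrocytes and 13 in control centrocytes.

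Between the zones, Six5 was higher in centrocytes than in centroblasts of both genotypes and Pax6 was lower. In mutants these were 2 of 12 members, where 16% of all tested genes were called (8.92% higher and 7.07% lower). In controls they were also 2 of 12, where 27.8% were called (14.9% higher and 12.9% lower). The count of 2 is close to the background in mutants and below it in controls. The libraries of the zones did not overlap for 1 member higher and 1 lower in each genotype, against 11.5% higher and 10.5% lower of all tested genes in mutants and 15.4% and 12.3% in controls. With no low count filter 2 members were higher and 1 lower in mutant centrocytes (Tbx21 besides Six5 and Pax6), where 6.9% of all fitted genes were called (4.12% higher and 2.78% lower). In controls 3 were higher and 1 lower (Tbx21 and Hoxd4 besides), where 11.5% were called (6.69% higher and 4.86% lower).

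Six5, a homeodomain factor of the sine oculis family whose human gene lies next to the myotonic dystrophy kinase gene, lies at chr7:19094594-19098549 on the plus strand. It had 3.42, 3.27, 2.1 and 1.71 CPM in mutant centrocytes, against 0.997, 1.07, 0.893 and 0.744 CPM in mutant centroblasts. In controls it had 2.19, 2.67, 2.47 and 1.94 CPM in centrocytes, against 0.555, 0.955, 1.55 and 1.42 CPM in centroblasts. The zones did not overlap in either genotype. The log2 difference was 1.5 ± 0.3 in mutants (SE, n = 4, edgeR adjusted p = 0.00198), or 2.83-fold, and 1.05 ± 0.29 in controls (adjusted p = 0.0138), or 2.06-fold. In mutants the call held in all 28 other settings, and in controls it ended between libraries 3 and 4 alone (0.57 ± 0.29, adjusted p = 0.18). Between genotypes Six5 differed by -0.28 ± 0.3 in centroblasts and 0.18 ± 0.28 in centrocytes, and neither passed.

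Pax6, with the library values given above, was lower in centrocytes. The zone and genotype comparisons use the same libraries, so their differences are not independent of each other. The log2 difference between zones was -1.89 ± 0.45 in mutants (SE, edgeR adjusted p = 0.00753) and -1.57 ± 0.51 in controls (adjusted p = 0.0284), and the zones did not overlap in either genotype. The call in controls ended in 7 other settings, with an adjusted p of 0.0597 with the replicate block, 0.0558 with the compared groups alone, 0.222 between libraries 1 and 2 alone, 0.0648 without control centroblast library 1, and 0.0562, 0.0799 and 0.0692 without control centrocyte library 1, 3 or 4. In mutants it ended between libraries 1 and 2 alone (adjusted p = 0.113) and without mutant centrocyte libraries 3 and 4 (0.0969). Isl1 also averaged less in control centrocytes (0.0922 ± 0.0709 CPM) than in control centroblasts (0.264 ± 0.129 CPM), but did not pass (adjusted p = 0.0656).

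Tbx21 (T-bet), the T-box factor that drives IgG2 switching and memory programmes in B cells and the Th1 programme in T cells, lies at chr11:97098071-97115331 on the minus strand. It had 15.2, 21.7, 9.64 and 16.7 CPM in mutant centrocytes, against 8.26, 9.4, 10.4 and 10.5 CPM in mutant centroblasts. In controls it had 19, 14.8, 22.9 and 20.9 CPM in centrocytes, against 9.01, 9.96, 15.9 and 17.9 CPM in centroblasts. Mutant centrocyte library 3 lay inside the range of mutant centroblasts, and the control zones overlapped too. The log2 difference was 0.71 ± 0.24 in mutants (edgeR adjusted p = 0.0503) and 0.56 ± 0.24 in controls (adjusted p = 0.0892), so neither passed. Tbx21 passed in 13 of 28 other settings in mutants, DESeq2 among them (adjusted p = 0.0243), and in 5 of 28 in controls.

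With the replicate number as a block, Tbx21 passed in mutants (0.67 ± 0.18, edgeR adjusted p = 0.0145) and in controls (0.6 ± 0.16, adjusted p = 0.0384). That the numbers pair libraries is not shown. Between genotypes Tbx21 averaged 9.64 ± 1.05 CPM in mutant and 13.2 ± 4.39 CPM in control centroblasts, and 15.8 ± 4.96 CPM in mutant and 19.4 ± 3.46 CPM in control centrocytes (SD, n = 4), and neither difference passed (-0.45 ± 0.24 and -0.3 ± 0.24 on the log2 scale, adjusted p = 0.275 and 0.412). T cell markers, of which 12 of 12 had a count, summed to 293 to 329 CPM in mutant centrocytes and 172 to 201 CPM in mutant centroblasts, and to 217 to 315 CPM in control centrocytes and 111 to 175 CPM in control centroblasts. Natural killer and innate lymphoid markers summed to at most 3.9 CPM in any library. The part of these cells in the level of Tbx21 was not tested.

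Tbx6, a T-box factor of the presomitic mesoderm, lies at chr7:126781483-126785560 on the plus strand. It had 3, 3.06, 2.81 and 1.5 CPM in mutant centrocytes, against 4.38, 5.34, 2.72 and 2.59 CPM in mutant centroblasts, and 2.65, 3.53, 3.8 and 4.33 CPM in control centrocytes, against 2.83, 3.41, 3.4 and 3.25 CPM in control centroblasts. The zones overlapped in both genotypes. The means were 2.59 ± 0.737 CPM in mutant centrocytes and 3.76 ± 1.33 CPM in mutant centroblasts, and 3.58 ± 0.702 CPM in control centrocytes and 3.22 ± 0.273 CPM in control centroblasts. No comparison passed for Tbx6. The log2 differences were -0.53 ± 0.26 between zones in mutants and 0.15 ± 0.26 in controls (adjusted p = 0.177 and 0.705).

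**Figure D4:**
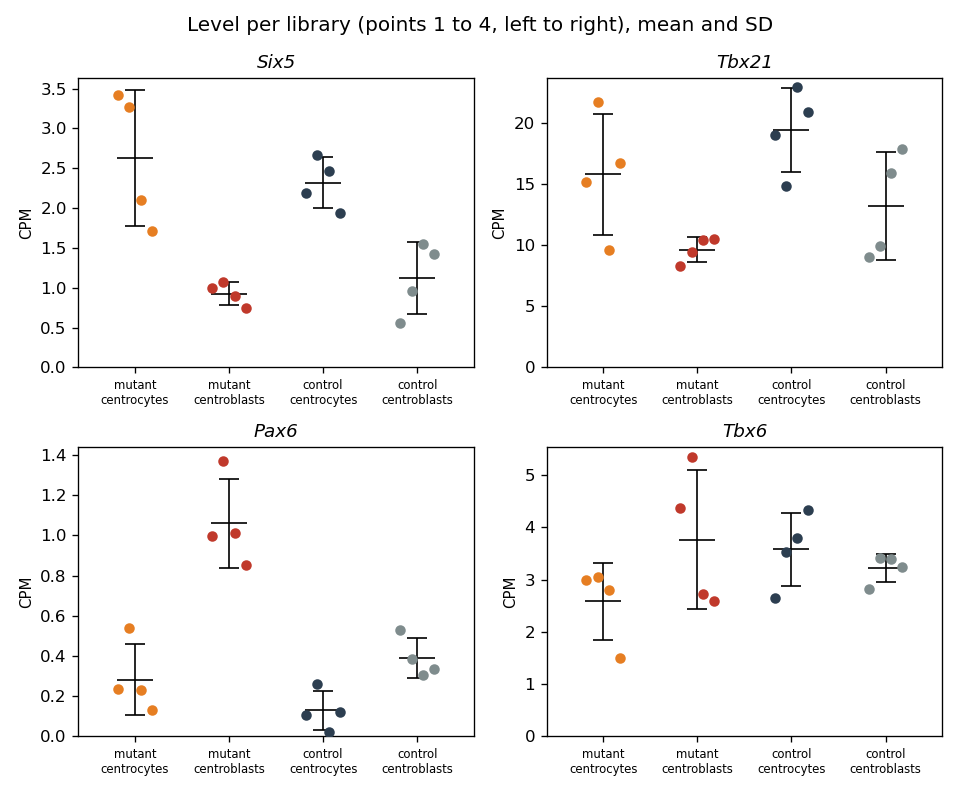
Level in CPM (vertical axis) of 4 developmental factors in centrocytes and centroblasts of each genotype (horizontal axis). Points are libraries 1 to 4 from left to right, and the line and bar are the mean and SD (n = 4). Six5 is higher and Pax6 lower in all centrocyte than in all centroblast libraries of a genotype, while the libraries of Tbx21 and Tbx6 overlap between zones.

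Partners and regulators of these factors were read from lists chosen by function. HOX proteins bind DNA together with PBX, MEIS and PKNOX homeodomain cofactors. Pbx3 averaged 4.08 ± 0.349 CPM in mutant and 7.31 ± 0.557 CPM in control centroblasts (-0.84 ± 0.14, edgeR adjusted p = 0.000756), and 3.6 ± 0.444 CPM in mutant and 5.48 ± 0.559 CPM in control centrocytes (-0.61 ± 0.14, adjusted p = 0.00746). Every mutant library was below every control library in both zones. Meis3 was lower in mutants by -0.82 ± 0.25 in centroblasts (adjusted p = 0.0434) and -0.84 ± 0.25 in centrocytes (adjusted p = 0.0273). In mutant centrocytes Pbx4 was lower as well (-0.77 ± 0.17, adjusted p = 0.00547). With mutant centrocyte libraries 3 and 4 left out, the centrocyte calls of Pbx3, Meis3 and Pbx4 ended (edgeR adjusted p = 0.0503, 0.266 and 0.106). Pbx2, Pknox1 and Tgif1 did not pass between genotypes.

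Under the filter, Meis2 had 45 reads in mutant and 6 in control centroblasts, and 33 reads in mutant and 15 in control centrocytes. Meis1 had 40 reads in mutant and 11 in control centroblasts, and 28 in mutant and 8 in control centrocytes. These genes were chosen after their values were seen and were not tested.

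Of 12 tested PRC2 genes none was higher and 2 were lower in mutant centroblasts and 1 in mutant centrocytes, where 6.4% and 9.15% of all tested genes were lower. Ezh2 averaged 222 ± 32 CPM in mutant and 289 ± 42 CPM in control centroblasts, and the histone-binding subunit gene Rbbp7 was lower by -0.37 ± 0.1 (edgeR adjusted p = 0.0222), a call that ended in 7 of 28 other settings. Counts per gene do not tell the mutant allele from the wild type. Of 20 PRC1 genes 1 was higher and 1 lower in mutant centroblasts, and 2 were higher and 2 lower in mutant centrocytes, where 10.5% of all tested genes were called in centroblasts and 16.5% in centrocytes. Cbx8, a chromodomain reader of the trimethyl mark, was higher in mutants of both zones (0.6 ± 0.14 and 0.73 ± 0.14, edgeR adjusted p = 0.00786 and 0.00161). The Cbx8 call ended in 2 of 28 other settings in centroblasts and in 1 in centrocytes. Pcgf5, a subunit of variant PRC1, was lower (-0.64 ± 0.15 and -0.53 ± 0.15, adjusted p = 0.00962 and 0.0232), and its call ended in 3 of 28 other settings in centroblasts and in 7 in centrocytes.

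Of 8 genes of trithorax proteins and demethylases of the same lysine, which counter Polycomb, none passed between genotypes in either zone. At an edgeR adjusted p of at most 0.05, 3 of them were higher in mutant centrocytes than in mutant centroblasts and 5 in control centrocytes than in control centroblasts, where 8.92% and 14.9% of all tested genes were higher. Kdm6b, a demethylase of that lysine, was higher by 1.13 ± 0.15 in mutants (adjusted p = 5.66e-05) and 1.49 ± 0.15 in controls (adjusted p = 2.42e-06). With the GC and length offset, the calls of Kmt2b, Kmt2c and Kmt2d in controls ended (edgeR adjusted p = 0.3, 0.082 and 0.117). That of Kmt2d in mutants ended too (adjusted p = 0.189), while Kdm6b and Ash1l stayed called in both genotypes.

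Of 102 other developmental transcription factor genes (the SOX, DLX, IRX, FOX and related families) 74 had a count and 2 were tested. Hmx2, a homeobox gene of the inner ear, averaged 0.223 ± 0.0797 CPM in mutant centrocytes and 0.896 ± 0.24 CPM in mutant centroblasts (-1.99 ± 0.39, edgeR adjusted p = 0.00173), and 0.269 ± 0.0967 CPM in control centrocytes and 0.934 ± 0.377 CPM in control centroblasts (-1.78 ± 0.38, adjusted p = 0.00216). Between genotypes neither Hmx2 nor Pou4f1, a sensory neuron factor, passed. Pou4f1 averaged 0.572 ± 0.0635 CPM in mutant and 0.612 ± 0.206 CPM in control centroblasts, and 0.641 ± 0.115 CPM in mutant and 0.641 ± 0.101 CPM in control centrocytes.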

How the data were processed

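Per the labels' protocols, cells were sorted into Trizol and RNA libraries were made with TruSeq kits. The authors deposited 1 table of raw read counts, whole numbers, with 1 gene symbol per line. The submitters' processing notes name Trim Galore and cutadapt for trimming, STAR 2.5.3a with the mm10 build, and Subread's featureCounts 1.4.5-p1. Annotation, strand and multimapping settings are not given in the sources used here. Naive B cells, which the design text mentions, are not analysed here. GENCODE M21, matched on symbol, gave coordinates, exon lengths and GC content (all 96 members; 14774 of 15240 tested genes).

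The analysis used edgeR 4.0.16 and limma 3.58.1 in R 4.3.3: filterByExpr by group, TMM factors and the quasi-likelihood test with 1 mean per group over 16 libraries (12 residual degrees of freedom), 2-sided, Benjamini-Hochberg adjustment over 15240 genes, threshold 0.05. The 5 comparisons were mutant against control per zone, centrocytes against centroblasts per genotype, and the interaction. The SE is the log2 difference divided by the square root of F. A ratio of summed counts has an exact 95% interval, and a group at 0 is given the limit of 3 counts. PCR reads are not independent molecules, so intervals and limits cover counting error only. Nothing in the labels says which libraries came from separate mice, so p-values measure the spread between these libraries.

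The members and lists were chosen with earlier results of these data known. Named with library values were members called in any comparison and those of highest mean CPM. Other members over the filter, the 10 of most reads below it and some list genes were named by range or sum. Hoxc6, Hoxc8, Pax3, Meis1 and Meis2 were chosen after their values were seen. Some genes of the lists are not reported here. The procedure was tested on simulated data. Same-numbered libraries of mutant centrocytes and centroblasts had correlations of 0.258 to 0.315 of their deviations from the group means. The highest correlation with a library of another number was 0.268 to 0.311, above that of the same number for libraries 2 and 4. These values do not show that the numbers pair libraries, and the main test did not use the numbers. Replicates of a group differed by far more than sampling noise (chi-square per gene at least 16).

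Other settings were the test (DESeq2 1.42.0), the scaling (RLE factors), the filter (none, or 1 CPM on average), the libraries fitted (the 2 groups compared, or all but mutant centrocyte libraries 3 and 4, or all but 1), a replicate block, a term or split for libraries 1 and 2 against 3 and 4, and a GC and length offset (spline with 4 degrees of freedom in each library) with and without the block.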

Additional observations from a re-analysis of the deposited data

Results flagged for a closer look

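In groups of 4 libraries, 64 sets of member values were searched for 1 library far from the others (by the gap to the nearest over the range), and 4 were found. Chance gives about 1 in 20 such sets, a rate that does not apply to counts with 3 libraries at 0 and 1 above it, where the gap is the whole range. All but Tbx6 are of that kind. Tbx6 stood at 1.5 CPM in mutant centrocyte library 4, where the others held 2.81 to 3.06 CPM. Hoxc4 stood at 0.0258 CPM in control centroblast library 2 and at 0.0704 CPM in control centrocyte library 3, with the other control libraries at 0. The Hoxd cluster held 2 reads in mutant centroblast library 1 and 0 in the others.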

How the results depend on the processing

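In mutant against control centroblasts, 4 members were called, against 0 with a mean of at least 1 CPM (where none of them was tested), 0 between libraries 3 and 4 alone, 2 with the replicate block and 2 to 4 with 1 library left out (2 without mutant library 1, 2 or 4 or control library 2). The labels' numbers are not shown to pair libraries across genotypes, and the block kept Isl1 and Pax6 and gave Hoxb13 an adjusted p of 0.063, while Hoxc9 was not tested in that fit. In centrocytes 3 were called, against 0 with a mean of at least 1 CPM, 5 with no filter and 3 to 4 with 1 library left out. Between zones in controls 2 were called, against 4 with no filter, 1 with a mean of at least 1 CPM, 1 with the compared groups alone, 1 between libraries 3 and 4 alone and 1 to 3 with 1 library left out. In mutants 2 were called, against 3 with the replicate block, 4 with the GC and length offset together with the replicate block, and 2 to 3 with 1 library left out. No member passed the interaction in any setting. The members with a count numbered 79, against 19 with at least 10 counts in 1 library, 12 with at least 10 counts in 4 libraries and 65 to 79 with 1 library left out. Among list genes Kmt2c, in control centrocytes against control centroblasts, changed direction between libraries 1 and 2 alone (-0.02). The call of Kmt2c ended in 16 more of 28 settings, and that of Kmt2b in 6. Of the cofactors, the call of Pbx3 ended in 1 other setting in centroblasts and 7 in centrocytes, and that of Meis3 ended in 12 and 6. The call of Pbx4 in centrocytes ended in 2, one of them libraries 1 and 2 alone (edgeR adjusted p = 0.206). Ezh2 lost its call in 16 of 28 settings in centroblasts and in 11 of 28 in centrocytes. Members under the filter were tested with no filter alone.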
